A study of Mus musculus with 9 samples.

Results

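The neurexin and neuroligin genes *Nrxn2*, *Nrxn3*, *Nlgn1*, *Nlgn2* and *Nlgn3* were examined in the hippocampus of mice with altered levels of IF1, the physiological inhibitor of the mitochondrial ATP synthase. Every non-control probe that carries 1 of these 5 gene names was taken, which gave 13 of the 39429 probes of the array: 2 for *Nrxn2*, 6 for *Nrxn3*, 2 for *Nlgn1*, 1 for *Nlgn2* and 2 for *Nlgn3*. RNA from 3 IF1-KO, 3 CRL (control) and 3 IF1-TG mice was hybridized with a single dye to Agilent mouse gene arrays, 1 mouse per array (named here KO1 to KO3, CRL1 to CRL3 and TG1 to TG3 by genotype and replicate number), to learn how hippocampal gene expression differs between these genotypes. All mice were C57BL/6J males aged 9 months. In IF1-KO mice a Cre recombinase driven by the *Camk2a* promoter removes an exon of *Atp5if1* (named *Atpif1* on the array), and in IF1-TG mice a tetracycline-regulated human IF1 transgene is switched on by a transactivator under the same promoter, so both changes are made mostly in excitatory neurons of the forebrain while other cells of the hippocampus keep their own IF1. The floxed allele came from C57BL/6N stock, and the labels list 1 control group, given only as CRL.

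Neurexins are transmembrane proteins of the presynaptic membrane, and neuroligins are their partners on the postsynaptic membrane, so the pair bridges the synaptic cleft. Each neurexin gene uses several promoters, which give long and short forms, and is extensively spliced, and the splice form sets which partners are bound. *Nlgn1* is found mainly at excitatory synapses, *Nlgn2* mainly at inhibitory synapses and *Nlgn3* at both kinds.

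Each probe is a DNA oligonucleotide of 60 bases, and probes of 1 gene can report different transcripts, so they are kept apart here. The sequences of 4 probes are shown because the results below compare the probes of *Nlgn1* and those along *Nrxn3*. For *Nlgn1* the first 30 bases are given and for *Nrxn3* the whole probe, from 5′ to 3′ as the deposited annotation lists them, with positions on mm9.
Nlgn1 A_55_P2061640 (chr3:25599157-25599216, minus strand): accatctcagttgcttttcaagccttaaga
Nlgn1 A_52_P258546 (chr3:25330886-25330945, minus strand): ccctttttcaagaatcgaaagcttattata
Nrxn3 A_55_P1963889 (chr12:91407414-91407473, plus strand): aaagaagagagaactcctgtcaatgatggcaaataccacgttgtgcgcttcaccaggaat
Nrxn3 A_55_P2054640 (chr12:91522030-91522089, plus strand): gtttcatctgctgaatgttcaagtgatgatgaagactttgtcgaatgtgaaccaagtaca
The first *Nlgn1* probe was designed on the cDNA BC005523, is paired with 0 RefSeq transcripts in the annotation, and lies 268271 bases upstream of the other. The second was designed on NM_138666 and is paired with 2 RefSeq transcripts. The 2 *Nrxn3* probes shown lie 165901 and 51285 bases upstream of the 3′-most probe of that gene, and each is paired with 3 RefSeq transcripts.

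All levels below are log2 signals relative to the 75th percentile of the same array, and a difference of 1 is a factor of 2. Levels of different probes are not compared, since probes differ in how strongly they bind. All 13 probes were well above background on all 9 arrays, each was printed as 1 spot, and 0 spots were saturated or marked as outliers. The share of all probes well above background was 66.7% to 69.5% on the IF1-TG arrays, 71.1% to 73.0% on the IF1-KO arrays and 72.2% to 74.9% on the CRL arrays, and the 75th percentile before scaling was also lower on the IF1-TG arrays (10.60 to 10.76 on the log2 scale) than on the others (10.91 to 11.39). *Atpif1* was at 5.20 and 5.53 on KO2 and KO3 but at 6.43 on the array labelled KO1, against 6.19 to 6.34 in CRL mice, so values without that array are given beside the calls against IF1-KO mice and beside several other differences from IF1-KO mice. Whether this probe lies in the deleted exon, and whether it detects the human transgene, was not examined. The arrays lay on 3 slides, with TG1 and TG2 on slide 1, with KO1, CRL1, CRL2 and TG3 on slide 2 and with KO2, KO3 and CRL3 on slide 3. The *P* values measure the spread between these mice, and in whole tissue fewer cells of a type cannot be told apart from less RNA per cell.

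In IF1-TG mice the *Nlgn1* probe A_55_P2061640 was 1.64-fold higher than in IF1-KO mice and 1.70-fold higher than in CRL mice, and it was the only probe of the 5 genes to reach a fold change of at least 1.5 with an unadjusted *P* value below 0.05. The other 12 probes did not reach both limits in any comparison. Between IF1-TG and IF1-KO mice 1 of 13 probes passed, where 3.77% of all 28011 tested probes did. Between IF1-TG and CRL mice 1 of 13 passed, where 4.47% of all probes did, and between IF1-KO and CRL mice 0 of 13 passed, where 1.06% of all probes did. At an unadjusted limma *P* value below 0.05 alone the counts were 1, 2 and 0 probes, where 7.12%, 8.53% and 2.56% of all probes did, and after Benjamini-Hochberg adjustment over all tested probes no probe of these genes passed in any comparison (smallest adjusted *P* = 0.541 from limma).

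**Figure D1:**
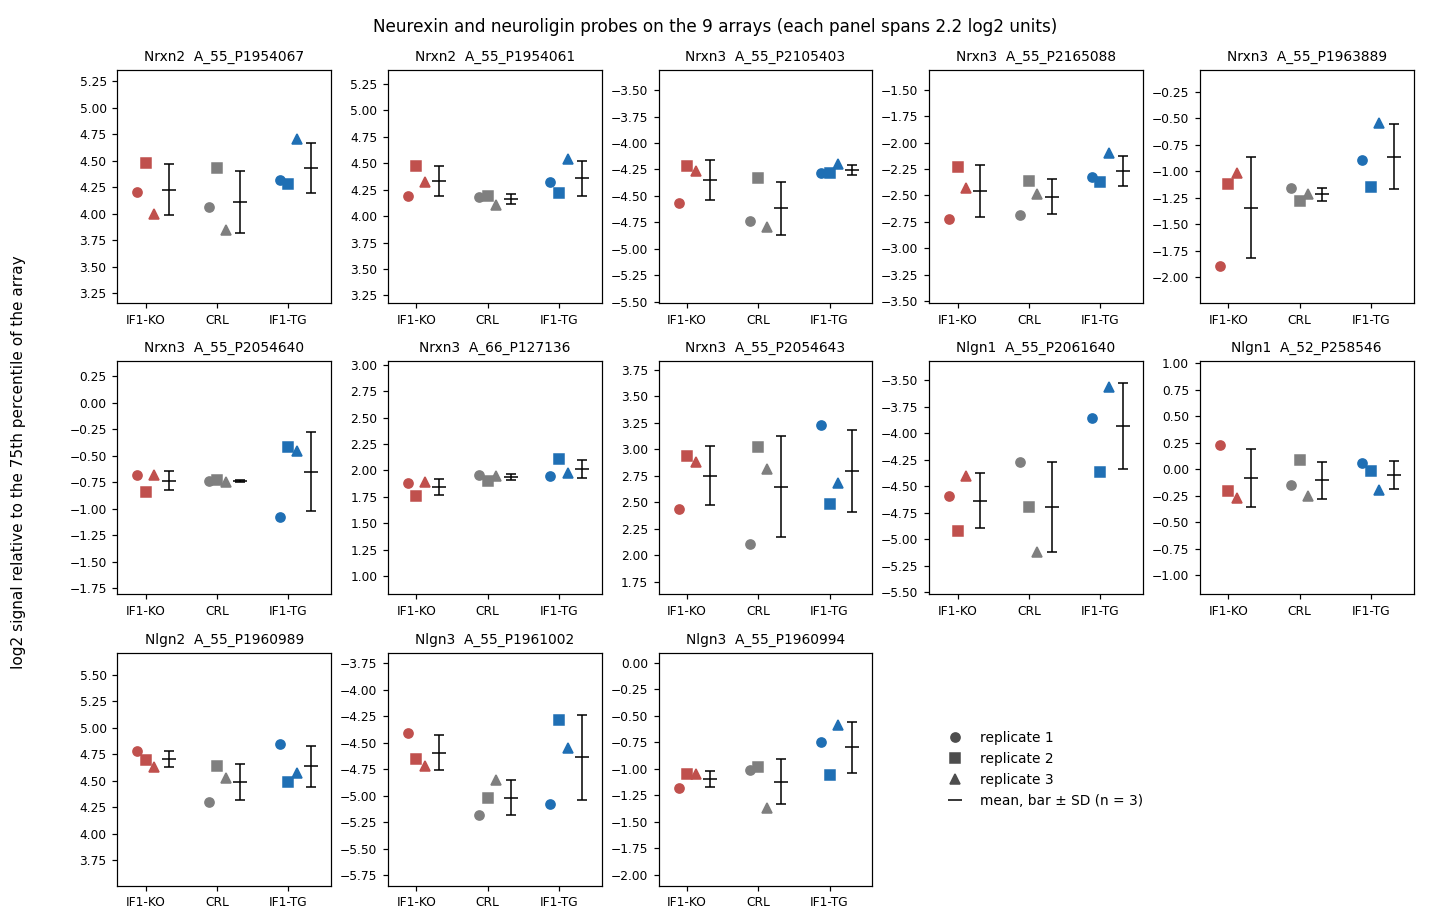
Log2 signal of each of the 13 probes, scaled to the array's 75th percentile, for IF1-KO (red), CRL (grey) and IF1-TG mice (blue). Symbols are replicates 1 to 3 and bars the mean ± SD (n = 3), every panel spans the same height, and the gap between the mean of IF1-TG mice and the means of the other genotypes is widest at A_55_P2061640 of *Nlgn1*, where CRL1 still lies above TG2.

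The mean level was highest in IF1-TG mice at 11 of the 13 probes and in IF1-KO mice at the other 2, and it was lowest in CRL mice at 11 probes and in IF1-KO mice at 2. Between IF1-TG and CRL mice all 13 probes differed in the direction of higher signal in IF1-TG mice, with a median log2 difference of 0.24, where 50.1% of all probes did and the median over all probes was 0.00. Between IF1-TG and IF1-KO mice 11 of 13 probes lay above 0 with a median of 0.09, where 51.3% of all probes did. Between IF1-KO and CRL mice 11 of 13 lay above 0 with a median of 0.06, where 48.2% of all probes did. These comparisons share arrays, and probes of 1 gene share transcripts. The median difference between IF1-TG and CRL mice was 0.17 with normexp and quantile normalization, 0.185 without TG3 and 0.20 without CRL3. Each of these fits left 12 of the 13 probes above 0, and leaving out TG1 left 11 (median 0.30). With slide as a fixed block the median difference between IF1-TG and CRL mice was 0.43, and 12 of the 13 probes lay above 0. The median between IF1-TG and IF1-KO mice was 0.25 in that fit, 0.20 without TG1 (10 probes above 0), 0.14 without KO2 (10 probes), 0.11 without the array labelled KO1 (9 probes) and 0.05 with normexp and quantile normalization (8 probes). The values between IF1-KO and CRL mice rested on single arrays: without CRL3 7 of 13 probes lay above 0 with a median of 0.00, without CRL2 the median was 0.13, and without the array labelled KO1 it was 0.15 (10 probes above 0). A fixed slide block gave a median of 0.14 there, against 0.11 with normexp and quantile normalization and 0.04 with quantile normalization alone.

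**Figure D2:**
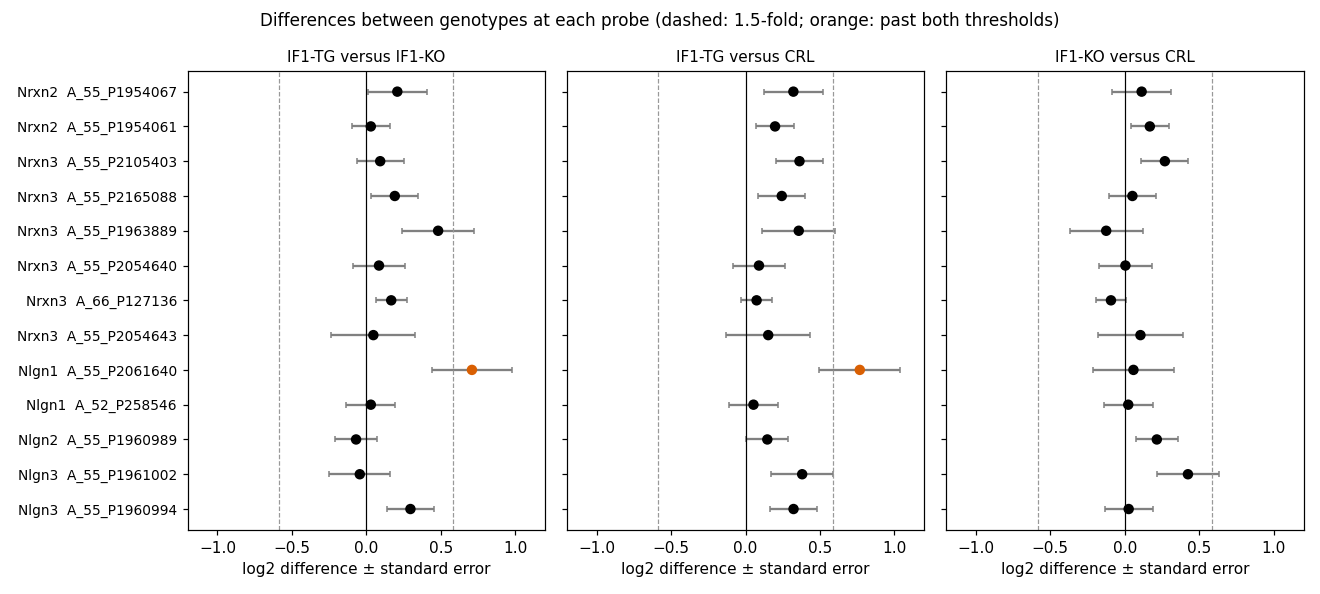
Log2 difference ± standard error of each probe in the 3 comparisons of genotypes, from the limma fit of all 9 arrays. Dashed lines mark a fold change of 1.5, and A_55_P2061640 of *Nlgn1* (orange) is the only probe past both limits, in the 2 comparisons with IF1-TG mice.

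*Nrxn2* encodes a presynaptic neurexin, and its probes lie on chromosome 19 at 6532125 to 6532184 and 6533156 to 6533215. Its 3′ probe A_55_P1954061 was at 4.19, 4.47 and 4.32 in IF1-KO mice, at 4.18, 4.19 and 4.10 in CRL mice and at 4.32, 4.22 and 4.54 in IF1-TG mice. All 3 IF1-TG arrays were above all 3 CRL arrays, whereas the IF1-KO arrays overlapped both. The log2 difference between IF1-TG and CRL mice was 0.20 (standard error 0.13, unadjusted *P* = 0.156 from limma) and 0.11 without TG3, and that between IF1-TG and IF1-KO mice was 0.03 (standard error 0.13) and -0.04 without the array labelled KO1. The other *Nrxn2* probe, A_55_P1954067, ranged from 3.998 to 4.485 in IF1-KO mice, from 3.85 to 4.43 in CRL mice and from 4.28 to 4.71 in IF1-TG mice, and the genotypes overlapped. Its difference between IF1-TG and CRL mice was 0.32 (95% interval -0.14 to 0.78), from 0.19 without CRL3 or TG3 to 0.48 without CRL2. Neither *Nrxn2* probe passed in any comparison.

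*Nrxn3* encodes another neurexin from a very long gene on chromosome 12, and its 6 probes run from 1540037 bases upstream of the 3′-most probe to that probe. Probes A_55_P2105403 (chr12:90033278-90033337) and A_55_P2165088 (chr12:91052021-91052080) are each paired with 1 RefSeq transcript, NM_001198587 and NM_001252074, and the other 4 with 3 transcripts. No probe of the gene passed both limits in any comparison.

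The 5′-most probe, A_55_P2105403, was at -4.57, -4.21 and -4.26 in IF1-KO mice, at -4.74, -4.33 and -4.79 in CRL mice and at -4.29, -4.28 and -4.20 in IF1-TG mice. After scaling, the IF1-TG arrays lay close together and above every CRL array, while the IF1-KO arrays reached across both groups. This probe was dim. Before scaling its processed intensity was 72.1, 99.1 and 97.1 in CRL mice and 83.3, 89.3 and 84.4 in IF1-TG mice. On that scale the IF1-TG arrays lay below CRL2 and CRL3. The difference between IF1-TG and CRL mice was 0.36 (standard error 0.16), a 1.29-fold change with an unadjusted *P* = 0.0487 from limma (adjusted *P* = 0.583), below the fold limit. It was 0.28 without CRL3 (unadjusted *P* = 0.152 from limma) and 0.51 without CRL2 (unadjusted *P* = 0.00907 from limma).

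Probe A_55_P1963889 of *Nrxn3*, paired with 3 RefSeq transcripts, was at -1.89, -1.12 and -1.02 in IF1-KO mice, at -1.16, -1.28 and -1.21 in CRL mice and at -0.89, -1.15 and -0.54 in IF1-TG mice. The lowest of the 9 values was on the array labelled KO1, and all IF1-TG arrays were above all CRL arrays. The difference between IF1-TG and IF1-KO mice was 0.48 (standard error 0.24, unadjusted *P* = 0.0809 from limma), and leaving out the array labelled KO1 gave 0.21 (unadjusted *P* = 0.295 from limma). It passed both limits without KO3 (0.64, unadjusted *P* = 0.0406 from limma) and without TG2 (0.63, unadjusted *P* = 0.0473 from limma). With slide as a fixed block it also passed both limits, at 1.08 against IF1-KO mice (unadjusted *P* = 0.0104 from limma) and at 0.82 against CRL mice (unadjusted *P* = 0.0242 from limma). That fit sets TG3 against the arrays of slide 2, where the differences were 1.35 from the array labelled KO1 and 0.68 from the mean of the CRL arrays.

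**Figure D3:**
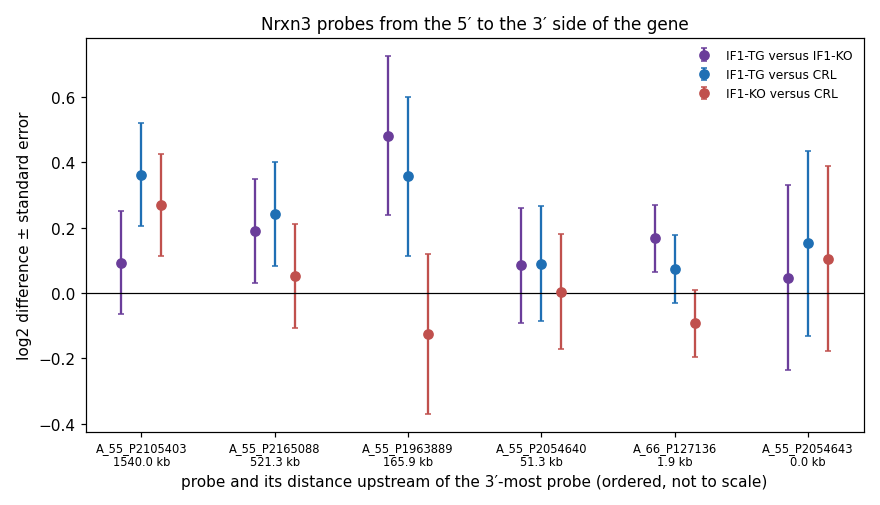
Log2 difference ± standard error between genotypes at the 6 *Nrxn3* probes, ordered from the 5′ to the 3′ side of the gene with the distance to the 3′-most probe under each. All IF1-TG versus CRL values (blue) and IF1-TG versus IF1-KO values (purple) lie above 0, from 0.05 to 0.48, with all 9 arrays in the fit.

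Probe A_66_P127136 of *Nrxn3* (chr12:91571382-91571441) was at 1.88, 1.76 and 1.90 in IF1-KO mice, at 1.96, 1.91 and 1.95 in CRL mice and at 1.95, 2.11 and 1.98 in IF1-TG mice. The IF1-KO arrays were below all others, and the IF1-TG and CRL arrays overlapped. The differences were small: 0.17 between IF1-TG and IF1-KO mice (standard error 0.10, unadjusted *P* = 0.142 from limma) and -0.09 between IF1-KO and CRL mice (standard error 0.10, unadjusted *P* = 0.392 from limma), the latter -0.05 without KO2. Leaving out the array labelled KO1 changed IF1-TG minus IF1-KO from 0.19 to 0.06 at A_55_P2165088, from 0.09 to -0.02 at A_55_P2105403 and from 0.05 to -0.11 at A_55_P2054643. The remaining *Nrxn3* probes showed overlapping genotypes. A_55_P2165088 ranged over the 9 arrays from -2.72 to -2.10, A_55_P2054640 from -1.07 to -0.41 and the 3′-most probe A_55_P2054643 (chr12:91573315-91573374) from 2.11 to 3.23. At A_55_P2054640 the CRL arrays were nearly equal (SD 0.01, n = 3), whereas the IF1-TG arrays had an SD of 0.37 (n = 3), with TG1 the lowest of all 9. The widest spread between mice of 1 genotype over the 13 probes was at A_55_P2054643 in CRL mice (SD 0.48, n = 3), and the difference of IF1-TG from CRL mice there was 0.15 (95% interval -0.49 to 0.80).

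To ask whether probes of *Nrxn3* moved unequally, the difference of each probe from the 3′-most one, which has the highest mean signal, was tested on each array. None of the 5 *Nrxn3* pairs passed both limits, with log2 values between IF1-TG and IF1-KO mice from 0.04 to 0.44 and standard errors from 0.24 to 0.39. Among all 6087 probe pairs of 1 gene 6% passed in that comparison. Without TG2 the count over the 8 pairs of these genes was 2.

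*Nlgn1* encodes the neuroligin of excitatory synapses, and its probes gave different results. A_55_P2061640 was at -4.59, -4.92 and -4.40 in IF1-KO mice, at -4.27, -4.70 and -5.12 in CRL mice and at -3.86, -4.36 and -3.56 in IF1-TG mice. The 3 IF1-TG arrays were above the 3 IF1-KO arrays and overlapped the CRL arrays, of which CRL1 was above TG2. Arrays did not overlap between IF1-TG and IF1-KO mice at 2 of the 13 probes (13.6% of all probes), between IF1-TG and CRL mice at 3 (12.2% of all probes) and between IF1-KO and CRL mice at 2 (8% of all probes). The signal of A_55_P2061640 was dim: before scaling its processed intensity was 86.2, 78.1 and 97.1 in IF1-KO mice, 99.8, 76.7 and 77.4 in CRL mice and 112.1, 84.5 and 131.6 in IF1-TG mice. On that scale the genotypes overlapped, with TG2 below KO1 and KO3.

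**Figure D4:**
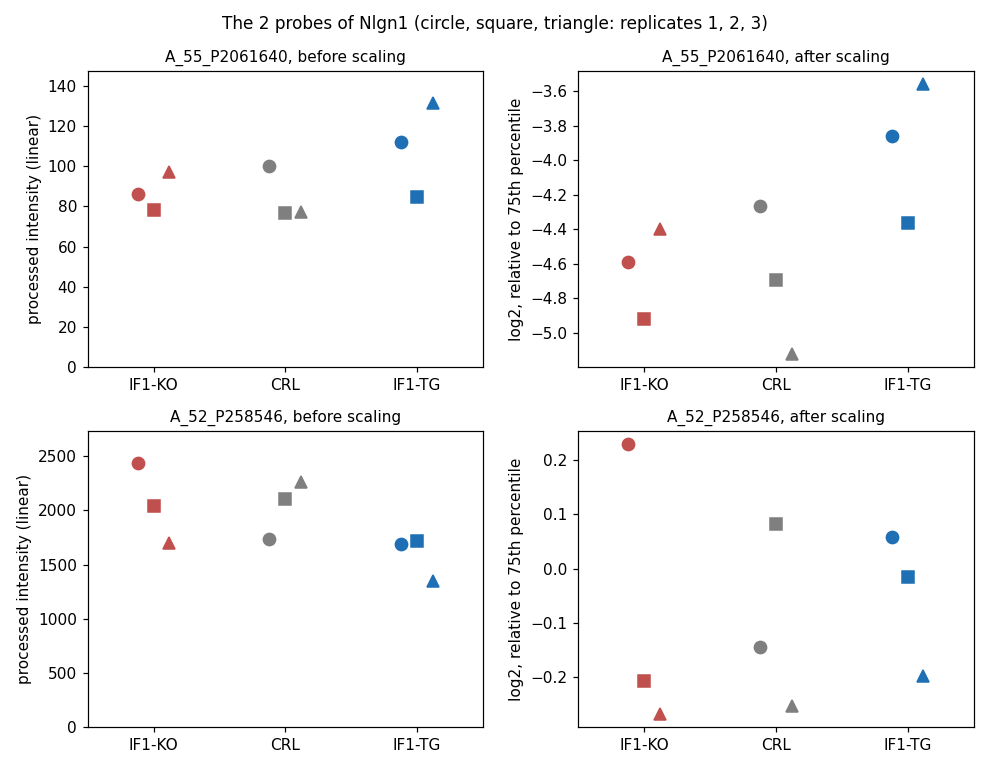
Signal of the 2 *Nlgn1* probes on the arrays of each genotype, as processed intensity before scaling (left, linear axis from 0) and as log2 signal scaled to the array's 75th percentile (right). For A_55_P2061640 (top) TG1 and TG3 are the highest arrays on both scales, and for A_52_P258546 (bottom) the genotypes overlap after scaling.

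The log2 difference at A_55_P2061640 was 0.71 between IF1-TG and IF1-KO mice (standard error 0.27, unadjusted *P* = 0.0294, adjusted *P* = 0.681 from limma) and 0.77 between IF1-TG and CRL mice (standard error 0.27, unadjusted *P* = 0.0209, adjusted *P* = 0.541 from limma). Between IF1-KO and CRL mice it was 0.06 (95% interval -0.56 to 0.68). Both calls depended on single arrays. Against IF1-KO mice the unadjusted limma *P* value was 0.055 without the array labelled KO1 (difference 0.73), 0.100 without KO2 (0.57), 0.0689 without TG1 (0.67) and 0.105 without TG3 (0.53). Against CRL mice it was 0.0787 without CRL3 (0.55), 0.0521 without TG1 (0.73) and 0.0768 without TG3 (0.58). Background correction from the unprocessed signals with quantile normalization gave 0.41 and 0.36, below the fold limit. On slide 2 alone TG3 was 1.03 above the array labelled KO1 and 0.92 above the mean of the CRL arrays, and with slide as a fixed block the difference was 0.84 from IF1-KO mice (unadjusted *P* = 0.0653 from limma) and 1.02 from CRL mice (unadjusted *P* = 0.0251 from limma), of which the second passed both limits. With slide as a random block both passed, at 0.71 and 0.80.

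The other *Nlgn1* probe, A_52_P258546, was at 0.23, -0.21 and -0.27 in IF1-KO mice, at -0.14, 0.08 and -0.25 in CRL mice and at 0.06, -0.02 and -0.20 in IF1-TG mice. All genotypes overlapped. The differences were 0.03 between IF1-TG and IF1-KO mice (95% interval -0.35 to 0.41; 0.19 without the array labelled KO1) and 0.05 between IF1-TG and CRL mice (95% interval -0.33 to 0.43), so the differences measured at A_55_P2061640 lay outside both intervals. With slide as a fixed block A_52_P258546 gave -0.35 from IF1-KO mice and -0.21 from CRL mice, opposite in sign to A_55_P2061640 in that fit. The difference of the probes from each other was 0.71 higher in IF1-TG than in CRL mice (standard error 0.31, unadjusted *P* = 0.046, adjusted *P* = 0.466 from limma), where 7.23% of all probe pairs passed. It was 0.68 higher in IF1-TG mice than in IF1-KO mice (standard error 0.31, unadjusted *P* = 0.0556 from limma), which did not pass. Leaving out TG3 brought both of these values under the fold limit, and leaving out CRL3 did so for the value against CRL mice.

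Markers of other cells of the tissue also differed between the arrays. The 7 astrocyte markers, with 0 of them at background in any genotype, had a summed linear level of 166 to 205 times the 75th percentile in IF1-TG mice, above 152 to 163 in IF1-KO mice and 144 to 164 in CRL mice, although only 4 of the 7 were higher in IF1-TG than in CRL mice and 6 than in IF1-KO mice. The 8 microglia markers summed to 61.4 to 70.7 in IF1-TG mice, 50.6 to 57.4 in IF1-KO mice and 58.7 to 64.9 in CRL mice. The 8 oligodendrocyte markers summed to 124 to 153 in IF1-TG mice, 85.2 to 125 in IF1-KO mice and 114 to 149 in CRL mice, with 5 of them higher in IF1-TG mice when set against IF1-KO mice and 3 when set against CRL mice. The 7 interneuron markers summed to 40.2 to 86.1 in IF1-TG mice, 76.0 to 85.3 in IF1-KO mice and 70.7 to 87.3 in CRL mice, with 2 of them higher in IF1-TG mice than in either other genotype. All 10 markers of hippocampal neurons, the labelled tissue, were well above background, and they summed to 71.1 to 77.2 in IF1-TG mice, 41.1 to 74.9 in IF1-KO mice and 63.9 to 75.6 in CRL mice. The 6 choroid plexus markers varied most between mice, with sums from 1.95 to 95.4 in IF1-KO mice, 2.89 to 117 in CRL mice and 4.69 to 178 in IF1-TG mice. All 6 had a higher mean in IF1-TG mice than in either other genotype, with a median of 0.91 against IF1-KO mice and 0.39 against CRL mice, and 0 of 6 were higher in IF1-KO than in CRL mice. Of 6 striatum markers 0 were higher than in CRL mice in IF1-TG (median -0.38) or IF1-KO mice (median -0.42), and 3 of 4 thalamus markers were higher in IF1-TG mice than in IF1-KO mice (median 0.33). The 3 pituitary and 5 endothelial markers had overlapping sums in all genotypes, although the median of the pituitary markers was -3.46 for IF1-TG minus CRL and -2.67 for IF1-KO minus CRL. The part of these in the *Nlgn1* difference was not tested, nor was the part of the lower overall signal of the IF1-TG arrays.

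*Nlgn2*, the neuroligin of inhibitory synapses, has 1 probe, A_55_P1960989 (chr11:69636641-69636700, minus strand). It was at 4.78, 4.70 and 4.63 in IF1-KO mice, at 4.30, 4.63 and 4.53 in CRL mice and at 4.85, 4.49 and 4.57 in IF1-TG mice. The IF1-TG arrays overlapped both other genotypes, and KO3 was just below CRL2. The differences were -0.07 between IF1-TG and IF1-KO mice (95% interval -0.39 to 0.25), 0.15 between IF1-TG and CRL mice (-0.17 to 0.47) and 0.22 between IF1-KO and CRL mice (-0.10 to 0.53), so a change of 1.5-fold lay outside all 3 intervals. Without the array labelled KO1 IF1-TG minus IF1-KO was -0.03 and IF1-KO minus CRL was 0.18. IF1-TG minus CRL was 0.04 without TG1 and 0.05 without CRL1, and IF1-KO minus CRL was 0.12 without CRL1.

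*Nlgn3*, the neuroligin found at both kinds of synapse, lies on chromosome X and has 2 probes. A_55_P1961002 (chrX:98515760-98515819) was at -4.41, -4.65 and -4.72 in IF1-KO mice, at -5.18, -5.02 and -4.85 in CRL mice and at -5.08, -4.28 and -4.55 in IF1-TG mice. After scaling, the IF1-KO arrays were above all CRL arrays, and the IF1-TG arrays spanned both groups. The signal was dim. Before scaling the processed intensity was 98, 93.8 and 77.8 in IF1-KO mice, 52.9, 61.4 and 93.3 in CRL mice and 48.2, 89.2 and 66.1 in IF1-TG mice. On that scale CRL3 lay above KO3. The difference between IF1-KO and CRL mice, 0.42, had the smallest *P* value of the 13 probes in that comparison (standard error 0.21, unadjusted *P* = 0.0717 from limma), and it was 0.33 without the array labelled KO1 (unadjusted *P* = 0.197 from limma). The difference of IF1-TG from CRL mice was 0.38 (standard error 0.21, unadjusted *P* = 0.100 from limma), and 0.60 without TG1 (unadjusted *P* = 0.0077 from limma), which passed both limits. The 3′ probe A_55_P1960994 (chrX:98516599-98516658) was at -1.18, -1.05 and -1.05 in IF1-KO mice, at -1.02, -0.98 and -1.37 in CRL mice and at -0.75, -1.06 and -0.59 in IF1-TG mice. TG1 and TG3 were the highest arrays, and TG2 was within the range of the others. The difference from IF1-KO mice was 0.30 (unadjusted *P* = 0.0989 from limma) and that from CRL mice was 0.32 (unadjusted *P* = 0.0764 from limma). The first was 0.19 without TG3 and 0.43 without TG2, and the second was 0.20 without CRL3 and 0.45 without TG2. TG2 was the lowest of its genotype at this probe and the highest at the other *Nlgn3* probe, so the order of the IF1-TG mice differed between the probes.

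Proteins that bind neurexins and neuroligins, or that cut or splice them, were taken as a list, of which 52 genes were measured. In IF1-TG mice against IF1-KO mice 3 of the 52 genes (*Grid1*, *Mdga2* and *Magi1*) had a probe past both limits, where 4.69% of all 21924 genes did. Between IF1-TG and CRL mice 1 did (*Grid1*), where 5.59% of all genes did, and between IF1-KO and CRL mice 0 did, where 1.34% of all genes did. By the brightest probe of each gene, 22 of 52 were higher in IF1-TG mice than in IF1-KO mice (median -0.06), whereas 51.3% of all genes were higher (median 0.01). Against CRL mice 28 of 52 were higher in IF1-TG mice (median 0.03) and 34 of 52 in IF1-KO mice (median 0.07). Without CRL1 these were 25 (median -0.004) and 32 (median 0.02). The first was 27 without TG2 or TG3 (median 0.01 in both), but 32 without TG1 and 31 without CRL3 or with slide as a fixed block (median 0.05 in each). The second was 30 without KO2 (median 0.02) and 36 without KO3 (median 0.11). The direction against IF1-KO mice turned without KO2 (30 of 52 higher, median 0.05), without TG1 (28 of 52, 0.01) and when slide was a fixed block (27 of 52, 0.06). The count of genes past both limits against IF1-KO mice was 1 without KO2, 4 without the array labelled KO1 and 7 without TG2. The count against CRL mice was 5 without TG2, 3 without CRL2 and 2 without CRL1, CRL3 or TG1.

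*Grid1*, the delta glutamate receptor that joins neurexins through cerebellins, was lower in IF1-TG mice. Its probe A_55_P2001688 was at -1.54, -1.15 and -1.59 in IF1-KO mice, at -1.53, -1.26 and -1.28 in CRL mice and at -2.08, -2.23 and -2.13 in IF1-TG mice. The IF1-TG arrays were below all others. The difference was -0.72 from IF1-KO mice (standard error 0.15, unadjusted *P* = 0.00112, adjusted *P* = 0.582 from limma) and -0.79 from CRL mice (standard error 0.15, unadjusted *P* = 0.000604, adjusted *P* = 0.327 from limma). Without KO2 the first was -0.58, under the fold limit, and without the array labelled KO1 it was -0.78.

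Among the extracellular partners of neurexins, which include *Grid1*, leucine-rich repeat proteins (*Lrrtm1* to *Lrrtm4*), cerebellins, neurexophilins and calsyntenins, 5 of 22 genes were higher and 17 lower in IF1-TG mice against IF1-KO mice, with a median of -0.21. Apart from *Grid1* no gene of this group passed, and the values included -0.84 for *Lrrtm4* (standard error 0.45), -0.51 for *Nxph1* (standard error 0.27) and 0.46 for *Dag1*, which encodes dystroglycan (standard error 0.27). These values rested on single arrays: *Lrrtm4* ranged from -1.21 without TG2 to -0.35 without TG1, *Nxph1* from -0.82 without TG2 to -0.35 without TG1, and *Dag1* from 0.15 without KO2 to 0.64 without the array labelled KO1. With slide as a fixed block, a fit in which TG3 is the only IF1-TG array that shares a slide with other genotypes, 11 genes were higher and 11 lower (median 0.01), whereas with slide as a random block (correlation within slides 0.082) 5 were higher and 17 lower (median -0.21). Without KO2 the counts were 10 and 12 (median -0.08), without TG1 7 and 15 (median -0.11), and without the array labelled KO1 they were 4 and 18 (median -0.30). Set against CRL mice, IF1-TG mice had 9 of the 22 genes higher (median -0.06) and IF1-KO mice 16 (median 0.11). With single arrays left out, the first ranged from 7 genes (median -0.15, without CRL1) to 11 (median -0.01, without TG1), and the second from 12 (median 0.02, without KO2) to 17 (median 0.19, without KO3), with 14 (median 0.02) without CRL1.

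**Figure D5:**
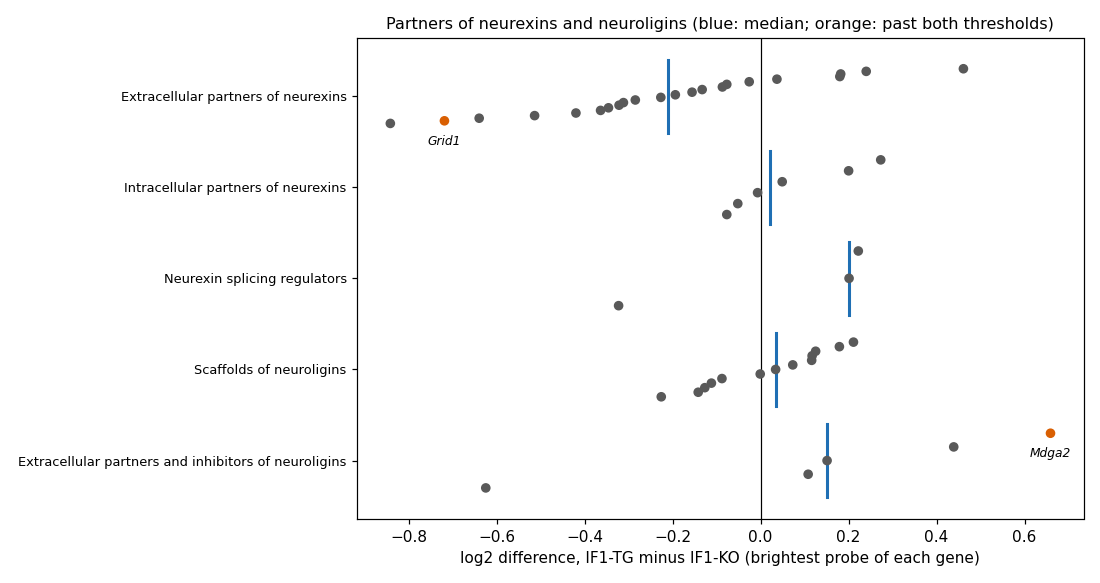
Log2 difference between IF1-TG and IF1-KO mice of each partner gene other than the proteases, at its brightest probe, grouped by role, with the median of each group as a blue line. *Grid1* and *Mdga2* (orange) are past both limits, and the extracellular partners of neurexins have the lowest median, -0.21; the *Magi1* probe past the limits is not its brightest and is not drawn.

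Extracellular partners and inhibitors of neuroligins comprised 5 genes, of which 4 were higher in IF1-TG mice than in IF1-KO mice. *Mdga2*, which binds neuroligins and blocks their contact with neurexins, was at -0.70, -0.93 and -0.41 in IF1-KO mice, at -0.62, -0.30 and -0.57 in CRL mice and at 0.02, -0.12 and 0.04 in IF1-TG mice (probe A_55_P2100030). The IF1-TG arrays were above all others, with a difference of 0.66 from IF1-KO mice (standard error 0.16, unadjusted *P* = 0.00274, adjusted *P* = 0.659 from limma). It was 0.53 without KO2, under the fold limit, and 0.65 without the array labelled KO1. *Mdga1*, a relative with the same role, gave 0.44 (standard error 0.15, unadjusted *P* = 0.0159 from limma), also under the fold limit. The dimmer *Mdga2* probe A_55_P1983011 gave 0.22 (standard error 0.12). The dimmer *Mdga1* probe A_55_P2078163 was well above background on 1 of 3 IF1-TG arrays and on all 3 arrays of each other genotype, so its lower value in IF1-TG mice is not given as a difference.

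Of 13 scaffolds of neuroligins, 7 were higher and 6 lower in IF1-TG mice against IF1-KO mice (median 0.03), with no stable direction: leaving out the array labelled KO1 gave 6 and 7 (median -0.02), KO3 6 and 7 (-0.04), TG3 5 and 8 (-0.01), KO2 9 and 4 (0.07) and TG2 7 and 6 (0.08). The difference was 0.07 for *Dlg4* (standard error 0.21; -0.02 without the array labelled KO1, and -0.12 to 0.23 with single arrays left out), which encodes PSD-95, the main scaffold of excitatory synapses, and -0.09 for *Gphn* (standard error 0.12; -0.16 to -0.01 with single arrays left out), which encodes gephyrin, the scaffold of inhibitory synapses. *Magi1*, a membrane-associated scaffold, passed at its dimmer probe A_52_P37091, at 0.82, 0.60 and 0.72 in IF1-KO mice, at 0.98, 1.03 and 0.54 in CRL mice and at 1.62, 0.92 and 1.69 in IF1-TG mice. The IF1-TG arrays were above the IF1-KO arrays and overlapped the CRL arrays. The difference from IF1-KO mice was 0.70 (standard error 0.23, unadjusted *P* = 0.0133 from limma), and 0.56 without TG3 (unadjusted *P* = 0.0502 from limma), while the brighter probe gave 0.21 (standard error 0.33). Leaving out the array labelled KO1 gave 0.75 at the dimmer probe and -0.05 at the brighter one, which ranged from -0.12 without TG1 to 0.50 without TG2. None of the 6 intracellular partners of neurexins passed, and their values ranged from -0.08 for *Lin7b* to 0.27 for *Cask*, a kinase-like scaffold. Leaving out single arrays gave -0.19 to 0.03 for *Lin7b*, 0.18 to 0.39 for *Cask* and -0.07 to 0.54 for *Lin7c*. The 3 splicing regulators (*Khdrbs1* to *Khdrbs3*) ranged from -0.32 to 0.22, none past the limits. Over fits without 1 array *Khdrbs1* ranged from 0.12 to 0.32, *Khdrbs2* from -0.51 to 0.04 and *Khdrbs3* from 0.11 to 0.38. Of the proteases that cut neurexins or neuroligins, *Adam10* differed by 0.10 (standard error 0.37) and *Mmp9* by -0.28 (standard error 0.16), neither past the limits. The value of *Adam10* was -0.16 without the array labelled KO1 and ranged from -0.22 to 0.47 with single arrays left out.

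Other synaptic adhesion genes, such as the leukocyte common antigen-related phosphatases, Slitrk proteins and teneurins, served for comparison. Of 38 measured genes 1 passed when IF1-TG mice were compared with IF1-KO mice, where 4.69% of all genes did, 20 were higher, and the median was 0.02. The split moved to 27 higher with slide as a fixed block (median 0.15) and to 16 higher without TG3 (median -0.05) or with normexp and quantile normalization (median -0.02). Against CRL mice 3 passed, where 5.59% of all genes did: *Tenm1*, *Ptprs* and *Il1rap*, the latter pair named after their values were seen. *Ptprs* was higher in IF1-TG mice (0.74) at a dimmer probe, while its brightest gave 0.28. *Il1rap* passed at a dimmer probe that was well above background on 1 of 3 IF1-TG arrays and on all other arrays. That probe entered the test through the genotypes where it is high, so its lower value in IF1-TG mice is not given as a difference. The brightest *Il1rap* probe gave 0.38. The gene that passed against IF1-KO mice was *Tenm1*, a teneurin, at -0.65, -0.30 and -0.21 in IF1-KO mice, at -0.33, -0.45 and -0.60 in CRL mice and at 0.20, -0.17 and 0.61 in IF1-TG mice (probe A_55_P1999833). The difference was 0.60 (standard error 0.21, unadjusted *P* = 0.0191 from limma), which was 0.47 without the array labelled KO1 and 0.40 without TG3. The count was 6 without TG2, 3 without the array labelled KO1 and 2 without KO3 or TG3.

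For each gene, the genes whose levels followed its brightest probe most closely over the 9 arrays were sought among 16126 genes with a RefSeq symbol, as a description. They were *Tonsl*, *Supt5* and *Cdc42bpb* for *Nrxn2* (Pearson *r* = 0.959, 0.954 and 0.953), and *Zc3h6*, *Enoph1* and A230072E10Rik for *Nrxn3* (0.983, 0.972 and 0.957). For the neuroligins they were *Lyz1*, *Rab19* and *Ddah2* for *Nlgn1* at A_52_P258546 (0.958, 0.949 and 0.948), *Spef1*, *Usp10* and *Arl8b* for *Nlgn2* (0.948, 0.905 and 0.901), and *Prr22*, *Psmd2* and *Hivep3* for *Nlgn3* (0.987, 0.986 and 0.977). The SD of these probes over the 9 arrays was small, from 0.14 for *Nrxn2* to 0.34 for *Nrxn3*, and the 9 points share slides and scaling.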

How the data were processed

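Per the labels, hippocampal RNA of 3 mice per genotype was hybridized to 1 Agilent array per mouse. The authors deposited spot intensities of Agilent Feature Extraction 10.7.3.1, corrected within each array for background and spatial trends but not normalized between arrays, along with unprocessed mean and local background intensities, and marks of each spot. Positions of probes on mm9 come from the annotation deposited with each array.

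From the log2 of the processed intensity, that of each array's 75th percentile was subtracted. Control and outlier spots were left out. A probe was kept if, in any genotype, the 3 arrays all showed it well above background, which left 28011 of 39429 probes and 21924 gene names. Of these names, 17118 matched a RefSeq symbol or synonym, including all 5 genes. All 9 arrays entered a model of genotype in limma 3.58.1 (R 4.3.3) with eBayes. A probe passed if it changed 1.5-fold or more and its unadjusted *P* value was under 0.05, the limits of the study's methods, and a gene when at least 1 of its probes did. Benjamini-Hochberg values are over all kept probes. Differences of a probe from the brightest probe of its gene were fitted in the same way. The fits were tested on simulated arrays with known shifts, and no outcome of that test is given here. The number of arrays limits the precision.

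The genes named are the 5 genes at every probe, genes of the partner list past the limits in any comparison, genes of the other adhesion list past them between IF1-TG and IF1-KO mice, the 3 genes most like each of the 5, and *Atpif1*; other partners are examples of their group. For 1 gene of the partner list, which stays in the counts, no value is reported here. The members and lists were chosen with earlier results of these data known. Alternatives were normexp background correction (offset 50) with quantile normalization, scaling by quantiles or by the median of each array, keeping dim probes, a stricter filter over the 9 arrays, a slide block (fixed or random), a block of replicate numbers, a fit of only 2 genotypes, trended and robust eBayes, and each array left out.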

Additional observations from a re-analysis of the deposited data

How the results depend on the processing

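Signal over background limits the results at the dim probes A_55_P2061640 of *Nlgn1*, A_55_P2105403 of *Nrxn3* and A_55_P1961002 of *Nlgn3*. With 3 arrays per genotype a single mouse can change a call. Replicate numbers did not pair the mice: deviations from the genotype means correlated at -0.165 to 0.116 for arrays of the same number and at -0.246 to 0.335 for others. With a replicate block 1 neurexin or neuroligin probe passed between IF1-TG and IF1-KO mice, as without it, and 2 genes of the other adhesion list.

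Normexp with quantile normalization left 0 of the 13 probes past the limits in either comparison with IF1-TG mice, 2 partner genes against CRL mice and 3 other adhesion genes. Without a filter on dim probes 2 other adhesion genes passed. When slide entered as a fixed block, 2 neurexin or neuroligin probes passed against CRL mice, 5 partner genes against CRL mice, 5 other adhesion genes and 1 pair of probes of a neurexin or neuroligin, which was also 1 with quantile normalization. No alternative put any of the 13 probes past the limits between IF1-KO and CRL mice. Leaving out single arrays gave 0 to 2 of the 13 probes, 1 to 7 partner genes, 1 to 6 other adhesion genes and 0 to 2 probe pairs between IF1-TG and IF1-KO mice, 0 to 1 of the 13 probes and 1 to 5 partner genes between IF1-TG and CRL mice, and 0 to 1 partner genes between IF1-KO and CRL mice. The causes were not tested.

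Differences near 0 changed sign without changing a call. With normexp and quantile normalization they were -0.0008 (A_52_P258546), -0.10 (A_55_P1954061) and -0.094 (A_55_P2054643) between IF1-TG and IF1-KO mice, -0.0052 (A_55_P1960989) between IF1-TG and CRL mice, and -0.051 (A_55_P2061640) and -0.047 (A_55_P2054640) between IF1-KO and CRL mice. With slide as a fixed block they were -0.35 (A_52_P258546) and 0.031 (A_55_P1961002), then -0.21 (A_52_P258546), then -0.019 (A_55_P2165088) and -0.016 (A_55_P2054643) in the same 3 comparisons. Slide as a random block gave -0.0015 (A_52_P258546) and quantile normalization -0.014 (A_55_P1954061) for IF1-TG minus IF1-KO, and the median of each array gave -0.0075 (A_55_P2054640) between IF1-KO and CRL mice. With single arrays left out, IF1-TG minus IF1-KO ranged from -0.062 to 0.19 at A_52_P258546, -0.18 to 0.0041 at A_55_P1960989, -0.22 to 0.17 at A_55_P1961002, -0.059 to 0.10 at A_55_P1954061, -0.017 to 0.16 at A_55_P2105403, -0.031 to 0.30 at A_55_P2054640 and -0.17 to 0.21 at A_55_P2054643. With single arrays left out, IF1-TG minus CRL ranged from -0.022 to 0.15 at A_52_P258546, -0.027 to 0.30 at A_55_P2054640 and -0.12 to 0.34 at A_55_P2054643. With single arrays left out, IF1-KO minus CRL ranged from -0.15 to 0.27 at A_55_P2061640, -0.13 to 0.12 at A_52_P258546, -0.10 to 0.10 at A_55_P1960994, -0.018 to 0.27 at A_55_P1954067, -0.061 to 0.18 at A_55_P2165088, -0.29 to 0.15 at A_55_P1963889, -0.022 to 0.056 at A_55_P2054640 and -0.16 to 0.29 at A_55_P2054643.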
